A study of Homo sapiens with 18 samples.

Results

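Transcript levels of 9 epithelial junction genes were examined in A549 cells treated with silica nanoparticles (NPs), namely the claudins CLDN1, CLDN2, CLDN3, CLDN4 and CLDN7, occludin (OCLN), the scaffold gene TJP1, the adhesion receptor gene F11R and the cadherin gene CDH1. They were taken by name. Every probe that was not a control spot and whose gene name in the scanner files is one of these 9 symbols was included, which gave 14 probes of 9 genes among the 41000 probes and 30484 gene names of the array. All 14 passed the filter on missing spots, as did 28665 of all probes.

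Tight junctions seal the space between neighbouring epithelial cells. Claudins form their strands and set which ions pass between the cells, with some members known for sealing and others, such as CLDN2, for forming pores. Occludin lies in the same strands, and F11R is an adhesion receptor of the tight junction. TJP1 ties the strands to the actin cytoskeleton, and CDH1, the E-cadherin of the adherens junction, holds the cells together below them. In the lung these proteins make up the barrier between air and tissue.

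A549 is an established line of human lung adenocarcinoma with epithelial features. The cells were exposed for 2 h in medium without serum and then left in complete medium. Ludox SM30 silica NPs of 9 nm diameter were followed by 3 h of recovery, and Ludox AS30 silica NPs of 18 nm diameter by 3 h or 22 h. Untreated cells handled in parallel, with no particles added, are the controls of each of these 3 treatments, and the array dose was the same for both particles. The 6 groups hold 3 arrays each, lettered A to C. The study calls these biological replicates, and the labels name no separate cultures, so the p-values measure the spread between these samples. RNA came from whole cultures, in which more expressing cells and more RNA per cell cannot be told apart.

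The 18 one-colour arrays lay on 5 slides, and between 51.86% and 72.42% of the spots of an array were well above background. No spot was saturated. The epithelial markers EPCAM, KRT7, KRT8, KRT18 and KRT19 were well above background on 18 of 18 arrays, while the leukocyte marker PTPRC and the endothelial marker PECAM1 were so on 0. Of the 9 markers of other cell types, PTPRC, PECAM1 and COL3A1 were above background on 0 arrays, CDH5 and DCN on 1, VWF on 7, and CD3E, CD14 and COL1A1 on 18. The log2 of their summed signal was 8.88 to 9.16 with SM30 against 9.03 to 9.22 in its controls, 9.43 to 9.7 against 8.68 to 9.32 with AS30 at 3 h, and 9.06 to 9.29 against 9.02 to 9.63 at 22 h. The sums were thus higher on all AS30 arrays at 3 h than in their controls, and their part in the results at that time was not tested. Treated and control arrays of AS30 at 3 h were on different slides, which are linked only by 1 control of 22 h on each. Values with slide as a fixed block are given for some of the member probes whose call or direction they change.

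CLDN4, a claudin known for limiting the passage of sodium ions, showed the largest difference between treated and control cells among the 9 genes. It rose 3 h after both particles, and its level 22 h after AS30 overlapped that of the controls. The 250 bases before its RefSeq start (build GRCh38.p14, chr7:73830746-73830995, plus strand) are shown because CLDN4 carries the largest difference of the 9 genes. The capitals mark 2 matches of TGANTCA, a loose form of the AP-1 letters TGACTCA in which any base is allowed at N. They begin 242 and 161 bases before the start and read TGATTCA and TGACTCA, so that the second alone holds the strict form. Also marked is 1 match of the GC box GGGCGG on the opposite strand.
CLDN4: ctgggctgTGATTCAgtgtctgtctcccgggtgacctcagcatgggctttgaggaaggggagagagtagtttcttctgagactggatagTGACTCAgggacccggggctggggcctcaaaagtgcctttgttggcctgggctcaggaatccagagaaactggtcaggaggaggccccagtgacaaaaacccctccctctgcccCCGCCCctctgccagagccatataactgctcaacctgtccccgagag
Of 35116 promoters of the same length in the table, 6.57% held TGANTCA and 42.6% held GGGCGG on either strand. Among the members with a promoter there, 7 of 9, CLDN2 also held TGANTCA, 60 bases before the first of its starts, and CLDN1, CLDN3, CLDN7, OCLN and TJP1 held no match in this window. The letters TGACGTCA, known as CRE, which cannot overlap a match of TGANTCA, were in 1.65% of all promoters and among the members only before 1 start of CLDN7. E-box letters CAGGTG were found before CLDN7, OCLN and TJP1 and in 17.5% of all promoters, and TATAAA was found in no member and in 10.7% of all, both strands searched. A match describes the letters alone, and the arrays measured no binding.

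The CLDN4 probe lies at chr7:72883891-72883950 in build hg18, the build of the probe positions in the files. With SM30, its log2 normalized signal was 8.11, 8.28 and 8.19 on arrays A, B and C, against 4.34, 4.63 and 4.73 in the controls. AS30 at 3 h gave 8.37, 7.45 and 7.46, against 5.86, 4.61 and 4.99. All treated arrays thus lay above all controls at 3 h, for both particles. At 22 h the values were 6.08, 4.50 and 4.95 with AS30 and 5.18, 4.16 and 4.89 in the controls, and these ranges overlapped. Ordered by mean level, the groups ran from SM30 (8.19 ± 0.09, SD, n = 3) and AS30 at 3 h (7.76 ± 0.53), whose ranges overlapped, to AS30 at 22 h (5.18 ± 0.81), the 3 h AS30 controls (5.15 ± 0.64), the 22 h controls (4.74 ± 0.53) and the SM30 controls (4.57 ± 0.20), where each neighbour overlapped the next. The step between AS30 at 3 h and AS30 at 22 h was the one gap in this order.

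**Figure D1:**
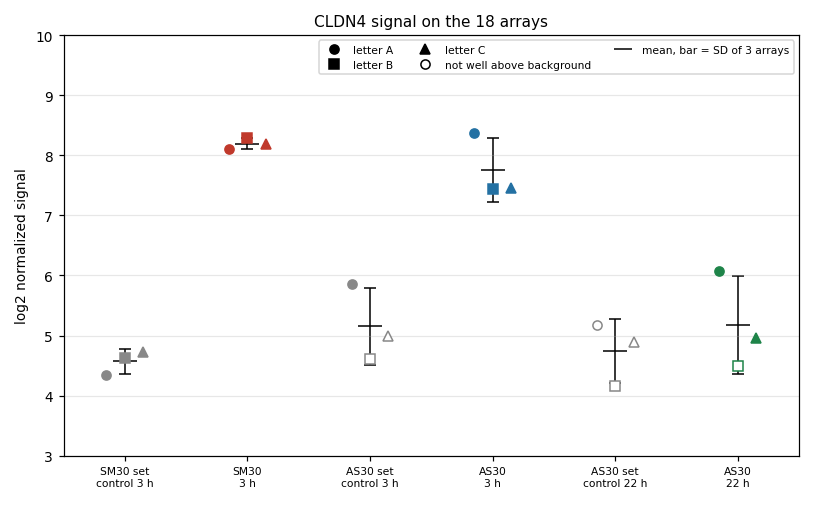
Log2 normalized signal of the CLDN4 probe on the 18 arrays, by group. Points are arrays A, B and C, open points are not well above background, and lines give the mean with the SD of 3 arrays. The 6 treated arrays at 3 h lie between 7.45 and 8.37, above all other arrays.

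In the limma fit of the log2 ratios, paired by letter, CLDN4 was higher than its controls by 3.62 with SM30 (SE 0.17, 12.3-fold, adjusted p = 0.000136 by Benjamini-Hochberg). The 3 single ratios were 3.77, 3.65 and 3.46. The AS30 cells at 3 h were higher by 2.61 (SE 0.17, 6.09-fold, adjusted p = 0.0014), with ratios of 2.52, 2.83 and 2.47. These folds depend on the background correction, because the control signals are dim. Under normexp correction, in which an offset is added before log2, the differences were 0.97 and 0.72, and both stayed called, at adjusted p = 0.00058 and 0.0062. With slide as a fixed block, the difference with AS30 at 3 h was 3.63 and was not called (adjusted p = 0.14). That slide adjustment rests on 1 control of 22 h on each slide, at 5.18 and 4.16, neither of them well above background. In the AS30 controls at 3 h, 1 of 3 arrays had CLDN4 well above background.

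At 22 h, the CLDN4 ratios were 0.90, 0.34 and 0.06, and the mean of 0.43 (SE 0.17, adjusted p = 0.17) did not pass the test. Here 2 of 3 treated arrays and 0 of 3 controls had the probe well above background, so no fold is given. The ratio at 22 h was lower than at 3 h by a difference of -2.17 (SE 0.24, adjusted p = 0.047). This call was lost without any 1 of 7 of the 9 pairs, at adjusted p from 0.0533 to 0.144, those kept being pair C of AS30 at 3 h and pair B of 22 h, and under normexp the difference was -0.63 (adjusted p = 0.097). The untreated controls themselves differed between 22 h and 3 h by -0.41 (SE 0.40, adjusted p = 0.68). Between the particles at 3 h, the CLDN4 ratio was higher with SM30 by 1.02 (SE 0.24, 95% confidence interval 0.48 to 1.56), and this difference did not pass the test over all probes (adjusted p = 0.21). The interval is for 1 probe, is not adjusted for the number of probes and holds for the paired fit only. With slide as a fixed block the difference turned to -0.09 (adjusted p = 1), a value that rests on the same dim controls of 22 h. Under normexp the difference was 0.26 (adjusted p = 0.32), so that no order of the particles is given. On the slide that held both SM30 and control arrays, the difference of 1 treated array from 3 controls was 3.54, and on the slide with AS30 at 22 h, that of 3 treated arrays from 1 control was 0.28.

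F11R, also known as JAM-A, an immunoglobulin-like adhesion receptor of the tight junction, has 2 probes. The probe A_24_P319364 (hg18, chr1:159232657-159232716) read 13.65, 13.58 and 13.66 with SM30 against 12.19, 12.68 and 12.93 in the controls, without overlap. With AS30 at 3 h it read 12.94, 13.79 and 13.17 against 11.99, 12.46 and 12.56, also without overlap. At 22 h the values of 12.42, 12.71 and 12.98 overlapped those of the controls, 12.64, 12.24 and 12.19. The rise with SM30 was 1.03 (SE 0.23, 2.04-fold, adjusted p = 0.0317, limma). It was not called when any 1 of the 3 SM30 pairs was left out, with values from 0.82 to 1.18 and adjusted p from 0.105 to 0.145, nor without pair A of AS30 at 3 h, which shares the estimate of spread (adjusted p = 0.0529). The call also ended with no filter on dim spots (adjusted p = 0.0619) and with slide as a fixed block (adjusted p = 0.20). With AS30 at 3 h the difference of 0.96 (SE 0.23, adjusted p = 0.062) did not pass, nor did that of 0.35 at 22 h (adjusted p = 0.40). The former was called without pair C (1.14, adjusted p = 0.0414) and without pair A of 22 h (adjusted p = 0.0489). It was also called in the fit without pairing by letter (0.96, adjusted p = 0.0377) and with slide as a random block (0.93, adjusted p = 0.0133). In the random-block fit the estimated correlation of arrays on a slide was negative (-0.083), and 3874 of all probes were called, beside 720 in the paired fit. Between the particles the F11R ratios differed by 0.07 (95% confidence interval -0.66 to 0.80, adjusted p = 0.94), and by -0.31 with slide as a fixed block.

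The other F11R probe, A_24_P319369 (hg18, chr1:159233305-159233364), read 8.62, 8.47 and 8.26 with SM30 against 7.65, 7.57 and 3.60, and the last control was not well above background. Its ratios were 0.98, 0.90 and 4.66, so that the mean of 2.18 (SE 0.63, adjusted p = 0.0735) rested on that 1 control, and without pair C it was 0.94 (adjusted p = 0.117). AS30 at 3 h gave 7.503, 8.546 and 8.061 against 6.518, 7.076 and 6.946. All treated arrays were above all controls, and the difference of 1.19 (SE 0.63) did not pass the test (adjusted p = 0.28), although it was called without pair C of SM30 (adjusted p = 0.0423). At 22 h the difference was 0.04 (SE 0.63, adjusted p = 0.98), with a ratio below 0 in pair A. On the slide with 3 treated arrays and 1 control of 22 h it was -0.007. Under normexp, A_24_P319369 was called with SM30 at a smaller difference of 0.70 (adjusted p = 0.0138). Both probes thus pointed the same way at 3 h, and in the paired fit without normexp A_24_P319364 with SM30 was the one call.

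Over the 14 probes, 2 were called higher and 0 lower with SM30, where 7.49% of all probes tested were called, made up of 4.35% higher and 3.13% lower. With AS30 at 3 h, 1 was higher and 0 lower, beside 2.52% of all probes, 1.5% higher and 1.01% lower. At 22 h, 0 of 14 were called, against 3.58% of all, 2.54% higher and 1.04% lower, and 4 of 14, beside 22.9% of all probes, had an unadjusted p under 0.05. The difference between the particles was called in 0 of 14 and in 0.014% of all probes, and 3 of 14, beside 14.6% of all, had an unadjusted p under 0.05. The difference between 22 h and 3 h of AS30 was called in 1 of 14, which is CLDN4, and in 0.0285% of all. Counts of this size say nothing about the 9 genes as a group, and the calls at 3 h are those of CLDN4 and F11R.

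The median log2 ratio of the 14 probes was 0.02 with SM30, 0.14 with AS30 at 3 h and -0.11 with AS30 at 22 h, beside -0.05, 0.01 and -0.005 over all probes tested. Their median size, without sign, was 0.25, 0.50 and 0.34, beside 0.25, 0.26 and 0.24. Probes whose treated and control arrays did not overlap numbered 5 above and 5 below the controls with SM30, 4 above and 2 below with AS30 at 3 h, and 0 above and 2 below at 22 h. Of the 2 below with AS30 at 3 h, CLDN2 was judged on 2 arrays per group, because treated B and control C were missing. With all spots kept these read 2.69 and 3.19, and the CLDN2 ranges overlapped. Over all probes with no missing array in the set, 43%, 23.8% and 23.9% had such a gap, so these shares leave out cases like CLDN2. Gaps were thus also common outside the junction genes. Ratios above 0 were found in 7, 8 and 5 of the 14 probes.

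**Figure D2:**
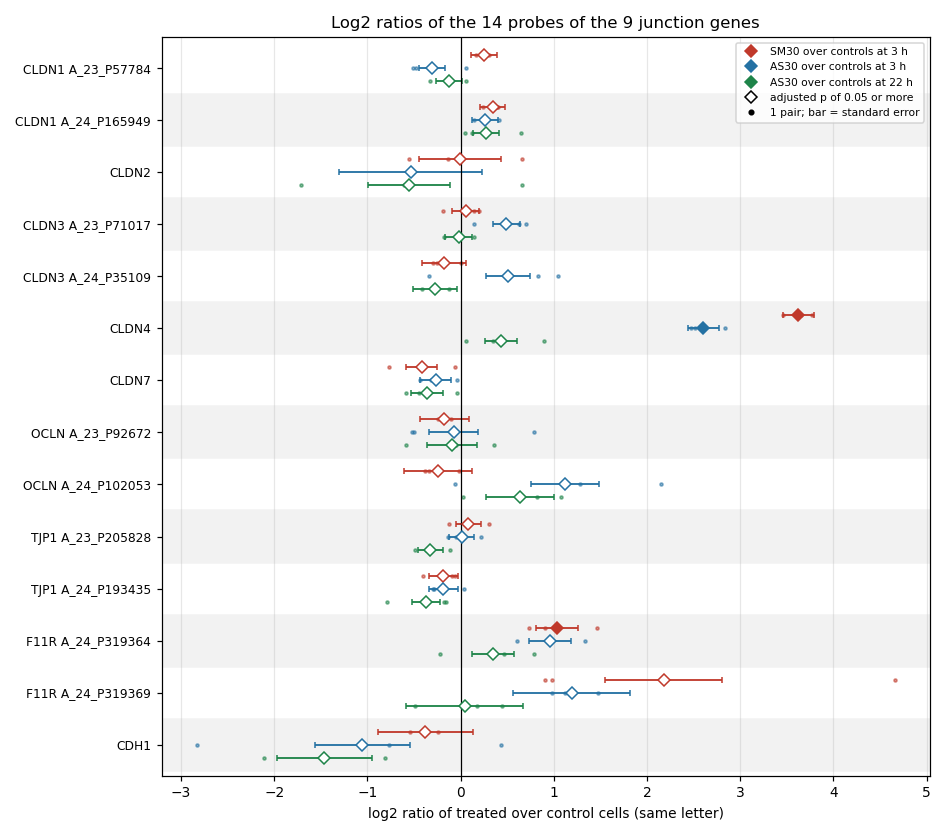
Log2 ratios of treated over control cells for the 14 probes, in rows, with the 3 comparisons in colour. Small points are single pairs, diamonds with bars are the fitted mean and its standard error, and filled diamonds have an adjusted p under 0.05. CLDN4 at 3 h with both particles and 1 probe of F11R with SM30 are filled, and CDH1 shows pairs from -2.83 to 0.44 with AS30 at 3 h.

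CLDN3, known as a sealing claudin, has 2 probes on chromosome 7 (hg18, chr7:72821299-72821358 and chr7:72821914-72821973). A_23_P71017 read 8.84, 8.92 and 8.74 with AS30 at 3 h against 8.14, 8.29 and 8.59, without overlap. The difference of 0.49 (SE 0.15, adjusted p = 0.10) did not pass, and without pair C it was 0.67 and was called (adjusted p = 0.0374). The second probe gave 0.51 (SE 0.24, adjusted p = 0.22) and 0.94 without pair C (adjusted p = 0.0213), because its ratios were 1.04, 0.83 and -0.34. Over 19 alternatives the first probe was called in 3 and the second in 2. With slide as a fixed block they were at 0.04 and 0.22, and neither was called. With SM30 the same probes were at 0.05 and -0.18, and at 22 h at -0.02 and -0.28, with none called. On the slide that held both SM30 and control arrays, 1 treated array differed from 3 controls by -0.10 and 0.07, so both directions turned. Between the particles, the CLDN3 ratios differed by -0.44 (95% confidence interval -0.91 to 0.03) and -0.69 (-1.46 to 0.07), which did not pass the test (adjusted p = 0.37 and 0.38).

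CLDN1, a sealing claudin that barriers of skin and airway use, has 2 probes that did not point the same way with AS30 in the paired fit. A_23_P57784 (hg18, chr3:191506695-191506754) differed from its controls by 0.25 with SM30, -0.31 with AS30 at 3 h and -0.12 at 22 h. A_24_P165949 (hg18, chr3:191510659-191510718) differed by 0.34, 0.26 and 0.27. None of these passed the test, with adjusted p from 0.16 to 0.65. With slide as a fixed block the second probe turned to -0.38 with AS30 at 3 h (adjusted p = 1), beside -0.10 for the first. With SM30 both probes had all treated arrays above all controls, at 11.59 to 11.62 against 11.28 to 11.42 and at 9.42 to 9.59 against 9.17 to 9.19.

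CLDN7, whose protein lies on the lateral membrane as well as in the junction, was measured by 1 probe (hg18, chr17:7104546-7104710). With SM30 it read 5.97, 6.07 and 6.11 against 6.74, 6.50 and 6.17. All treated arrays lay below the controls, and the difference of -0.42 (SE 0.17, adjusted p = 0.16) did not pass. With AS30 at 3 h the difference was -0.26 (adjusted p = 0.35), again without overlap. At 22 h 0 of 3 controls were well above background, so that neither a fold nor a direction is given there (adjusted p = 0.24). CLDN7 was thus not called in any of the 3 comparisons.

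The probes of OCLN, a membrane protein with several passes through the tight junction strand, were far apart in their difference with AS30. A_23_P92672 (hg18, chr5:68885271-68885330) differed by -0.18, -0.08 and -0.09 in the 3 comparisons, and the 2 AS30 values turned sign in some alternatives. With AS30 at 3 h they ran from -0.51 to 0.62, the highest with slide as a fixed block, and at 22 h from -0.32 to 0.155, with none called. A_24_P102053 (hg18, chr5:68883142-68885185) differed by -0.25 with SM30, 1.12 with AS30 at 3 h (SE 0.36, adjusted p = 0.12) and 0.64 at 22 h. The 1.12 stood on controls of 6.37, 3.82 and 4.68, of which 1 of 3 was well above background, against 6.31, 5.96 and 5.96 in treated cells. OCLN has near-identical copies elsewhere on chromosome 5, so the source of the signal of either probe is uncertain.

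TJP1, which encodes the scaffold ZO-1, gave small differences at 3 h. A_23_P205828 (hg18, chr15:27781117-27781176) differed by 0.08 and 0.01 at 3 h, and A_24_P193435 (hg18, chr15:27779819-27779878) by -0.19 and -0.18. At 22 h the first probe read 10.60, 11.03 and 10.92 against 11.09, 11.14 and 11.28. Treated arrays lay below controls there, by -0.32 (SE 0.13, adjusted p = 0.19), and the second probe differed by -0.37 (SE 0.15, adjusted p = 0.20) with overlap. The unadjusted p was 0.038 and 0.041, so this difference was under 0.05 before adjustment only.

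CDH1 was measured on 10 spots per array (hg18, chr16:67426715-67426774), all well above background, and varied widely between the AS30 arrays of a group. With SM30 it read 10.38, 10.38 and 10.26 against 10.62, 10.74 and 10.80, without overlap and with a difference of -0.38 (SE 0.51, adjusted p = 0.69). The single SM30 ratios were -0.24, -0.36 and -0.54 (SD 0.15). The SE is shared with the AS30 ratios, whose SD was 1.65 at 3 h and 0.65 at 22 h, so this p-value does not measure the SM30 spread alone. At 3 h, the AS30 arrays read 9.504, 7.329 and 8.158 against 10.269, 10.162 and 7.722, a difference of -1.05 (SE 0.51, adjusted p = 0.24). At 22 h they read 9.036, 7.996 and 7.952 against 10.501, 10.109 and 8.765, a difference of -1.46 (SE 0.51, adjusted p = 0.14). Control C was the lowest control at both times, and the ranges overlapped. Without pair C the value at 3 h was -1.80 and was called (adjusted p = 0.0491), while without pair B it was -0.165 and was not called. The value at 22 h was called without pair B of 3 h, which shares the estimate of spread (adjusted p = 0.0425). On the slide that held 3 treated arrays and 1 control of 22 h, the difference was -0.44.

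CLDN2 (hg18, chrX:106058571-106058630) varied across the AS30 arrays as well. With SM30 it read 5.93, 6.68 and 5.93 against 6.48, 6.02 and 6.07, a difference of -0.01 (SE 0.44, adjusted p = 0.99). Of the AS30 arrays at 3 h, A and C read 6.99 and 4.92, controls A and B read 7.53 and 7.00, and treated B and control C were missing. The fit dropped both, and the value of -0.54 is the ratio of pair A alone. At 22 h it read 7.22, 5.42 and 4.35 against 6.56, 7.13 and 4.96, with a difference of -0.56 (SE 0.44, adjusted p = 0.51) and ratios from -1.72 to 0.66. On the slide with 3 treated arrays and 1 control the difference at 22 h was 0.70, so its direction is not settled.

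**Figure D3:**
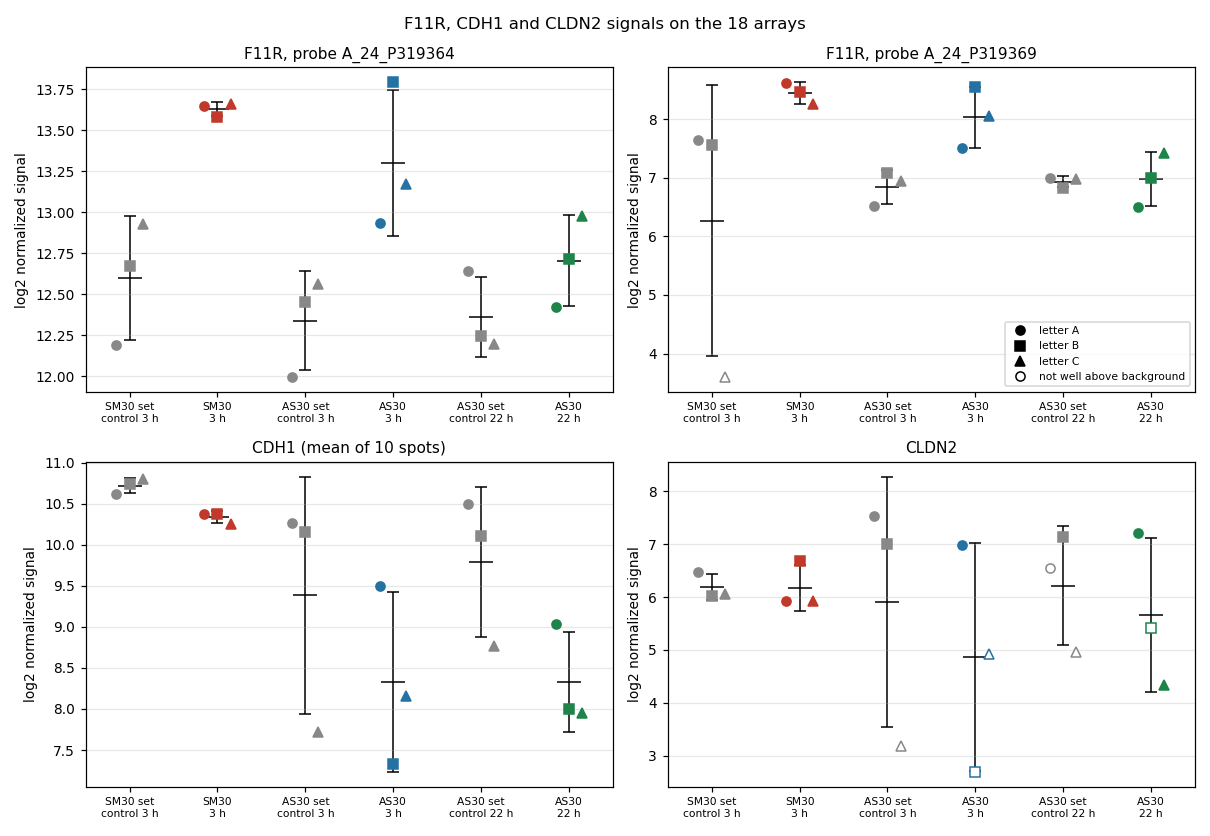
Log2 normalized signal of both F11R probes, CDH1 and CLDN2 on the 18 arrays, by group, each panel on its own scale. Points are arrays A, B and C, open points are not well above background, and lines give the mean with the SD of 3 arrays. Outlier spots are left out, and the CLDN2 arrays with a missing value are drawn with all spots kept. F11R control C of SM30 stands at 3.60 in 1 of its 2 probes, and CDH1 and CLDN2 spread more widely in the AS30 arrays than in the SM30 arrays.

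A further description was chosen after the values of CDH1 were seen. Over the 12 arrays of the AS30 treatments and their controls, with all spots kept, the CLDN2 signal had a Pearson r of 0.88 with CDH1. This includes the 2 arrays on which CLDN2 was not positive and significant, and over the other 10 arrays r was 0.83. EPCAM, an epithelial adhesion molecule, had r = 0.74 with CDH1 over the 12 arrays. Over the 6 arrays of SM30 and its controls, r was 0.04 and -0.43. EPCAM ran from 8.11 to 9.79 in the AS30 arrays and from 9.62 to 9.9 in the SM30 arrays. The arrays of a set share groups, slides and controls, so these values describe the arrays and carry no test.

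The level in untreated cells was also compared between the recovery times. The 3 h AS30 controls all lay on slide 1 and the 22 h controls on slides 1, 2 and 3, so time and slide are largely confounded. In the AS30 controls, 1 of 14 probes was called between 22 h and 3 h, beside 1.3% of all probes. It was the CLDN1 probe A_23_P57784, which read 11.22, 11.01 and 11.12 at 22 h against 11.80, 11.87 and 11.53 at 3 h. It fell by 0.61 (SE 0.12, adjusted p = 0.0212) in a limma fit of the 18 arrays. The call was lost without 1 of 4 of the 6 arrays, controls A and B of 3 h and B and C of 22 h, at adjusted p from 0.0529 to 0.0835, and with slide as a fixed block (-0.51, adjusted p = 0.38). The other CLDN1 probe differed by -0.67 (SE 0.18, adjusted p = 0.09), and with slide as a fixed block by -1.12 (adjusted p = 0.04996), the 1 call of that fit. CLDN7 was at -0.54 (SE 0.17, adjusted p = 0.15) and CLDN3 at 0.40 (SE 0.15, adjusted p = 0.24) with A_23_P71017. For CLDN7, 0 of 3 controls of 22 h were well above background, and its difference ran from -0.70 to -0.09 over the alternatives. The remaining probes had adjusted p of 0.446 or more. Without control A of 3 h, the OCLN probe A_24_P102053 was called higher at 22 h (1.48, adjusted p = 0.0294), and without control C of 3 h the CLDN3 probe A_24_P35109 was (0.61, adjusted p = 0.0361).

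Other genes of the same structures were counted from fixed lists, to be read against the shares of all probes called, 7.49% with SM30, 2.52% with AS30 at 3 h and 3.58% at 22 h. Values under the alternatives are given for the member genes only, and whether the calls of list genes hold there was not examined. With slide as a fixed block, 314, 51 and 7 of all probes were called, beside 2146, 720 and 1008 in the paired fit. Of 59 probes for 36 other tight junction genes, 3 were called higher and 3 lower with SM30, 2 higher and 0 lower with AS30 at 3 h, and 0 higher and 1 lower of 58 at 22 h. Their median log2 ratio was 0.03, -0.08 and -0.11, beside -0.05, 0.01 and -0.005 over all probes. Another claudin, CLDN14, was close to CLDN4 in size, below its 3.62 with SM30 and above its 2.61 with AS30 at 3 h. It rose by 3.12 with SM30 (SE 0.36, adjusted p = 0.0051), from a mean of 4.89 to 8.01, and by 2.91 with AS30 at 3 h (SE 0.36, adjusted p = 0.016), where 1 of 3 controls was well above background. At 22 h its difference was 1.19 (adjusted p = 0.17), with 0 of 3 controls well above background. Its 3 RefSeq starts held no TGANTCA in the 250 bases before them.

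CLDN12, a claudin linked to calcium passage, rose by 1.23 with SM30 (SE 0.28, adjusted p = 0.0366) and was at 0.68 with AS30 at 3 h (adjusted p = 0.19). AMOTL1, an angiomotin-like junction protein, rose by 1.12 in 1 probe with SM30 (SE 0.20, adjusted p = 0.0353) and by 0.98 in another with AS30 at 3 h (SE 0.17, adjusted p = 0.0298). Its 4 probes did not all run one way, since A_24_P252823 was at -1.42 with AS30 at 3 h (adjusted p = 0.13). CGN, which encodes the cytoplasmic plaque protein cingulin, fell by 0.95 with SM30 (SE 0.23, adjusted p = 0.0444), and its second probe was at -0.34 (adjusted p = 0.62). AMOTL2 and PARD6G, outside the rule for named genes, made up the other calls with SM30, at -0.93 and -0.57. ESAM, an adhesion molecule related to F11R, fell by 1.78 at 22 h (SE 0.25, adjusted p = 0.0187) in 1 probe, and its second probe was at -0.83 (adjusted p = 0.17).

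Of 27 probes for 15 adherens junction genes, 2 were called higher and 1 lower with SM30, beside 4.35% and 3.13% of all probes, and 0 in the other comparisons with controls, with 26 probes tested at 22 h. Both probes of ARVCF, a catenin that binds cadherins, rose with SM30, by 1.83 and 1.68 (SE 0.25 and 0.34, adjusted p = 0.0067 and 0.0241), and were at 1.04 and 1.40 with AS30 at 3 h (adjusted p = 0.069 and 0.068). PVRL3, the nectin-3 gene, fell by 0.73 with SM30 (SE 0.17, adjusted p = 0.0352). Of 19 probes for 15 desmosome and gap junction genes, 1 was higher and 1 lower with SM30, beside the same shares, and 0 were called with AS30, with 16 probes tested at 22 h. The connexin gene GJC1 rose by 1.32 (SE 0.16, adjusted p = 0.0043), and the armadillo-repeat gene PKP4 fell by 0.77 (SE 0.16, adjusted p = 0.0256). In the controls, the connexin gene GJB2 differed between 22 h and 3 h by -2.36 (adjusted p = 0.03995), with 0 of 3 controls of 22 h well above background, so that its size is not a measured fold.

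Among 25 probes for 18 genes of epithelial and mesenchymal state, 1 was called higher with SM30, 1 higher with AS30 at 3 h, and 1 higher and 1 lower at 22 h. ELF3, an epithelial ETS factor, rose by 1.21 with SM30 (SE 0.24, adjusted p = 0.0222) and by 1.75 with AS30 at 3 h (SE 0.24, adjusted p = 0.0157), and was at 0.58 at 22 h (adjusted p = 0.20). The keratin gene KRT19 rose by 1.21 with AS30 at 22 h (SE 0.20, adjusted p = 0.0234) and was at 0.50 with SM30 (adjusted p = 0.16). FN1, which encodes the matrix protein fibronectin, fell by 0.73 at 22 h (SE 0.15, adjusted p = 0.0439) in 1 of its 3 probes, and the others were at -0.75 and -0.16 (adjusted p = 0.061 and 0.62). Over the 5 epithelial markers, 1 of 9 probes, that of KRT19, was called, at 22 h. Over the markers of other cell types, 0 of the 4 probes kept were called in any comparison, with a median of 0.62 with AS30 at 3 h.

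**Figure D4:**
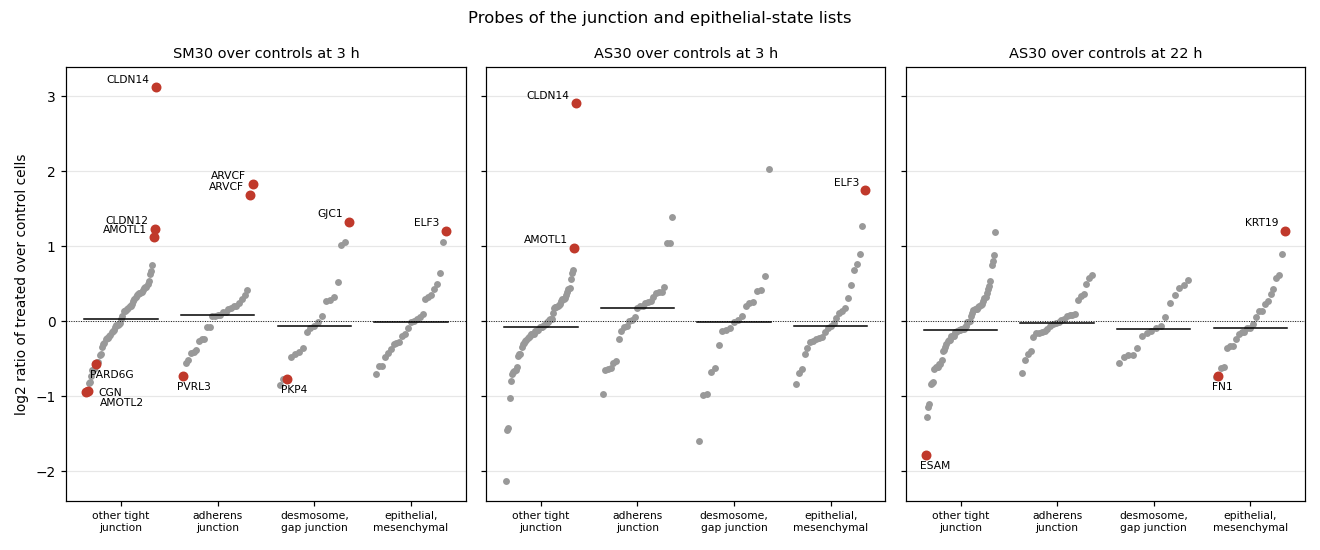
Log2 ratios of the probes of 4 gene lists in the 3 comparisons with controls, each list sorted by its ratios. Points are probes, red points with names have an adjusted p under 0.05, and black lines are list medians. CLDN14 stands at 3.12 and 2.91 at 3 h, and the list medians lie between -0.11 and 0.18.

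The 5 probes of other genes whose signal was most like that of CLDN4 were sought among 27355 probes well above background on at least 6 arrays, by Pearson r over the 18 arrays. They were BBC3 (r = 0.958), which encodes the apoptosis factor PUMA, TRIM8 (r = 0.95), a ubiquitin ligase gene, CREM (r = 0.942), a cAMP-responsive regulator gene, a transcript without a gene symbol (r = 0.938) and KLF6 (r = 0.937), a Kruppel-like factor gene. The 18 points share groups and slides, and r carries no test.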

How the data were processed

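Gene expression was measured on 18 one-colour Agilent arrays of A549 cells. The authors deposited 1 scanner file per array, made with Feature Extraction 10.5.1.1, whose processed signals are spot intensities on a linear scale after background correction, and a table of their quantile-normalized intensities. That table keeps a linear scale, with column medians of 244 to 519. Per the study's methods, flagged spots were set to missing, replicate spots averaged, sparse probes dropped and each treated sample divided by its corresponding control. The member genes and lists were chosen with earlier results of these data known.

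The same steps were repeated here on the scanner signals in limma 3.58.1 under R 4.3.3, with statmod 1.5.0. The log2 processed signal was quantile-normalized over 18 arrays, spots not positive and significant and outlier spots were left out (the methods do not name the latter), and probes over 33% missing were dropped. Treated arrays were set against the control of the same letter. Limma was fitted to the 9 ratios as 3 classes, and to the 18 arrays for controls, with Benjamini-Hochberg adjustment over all probes at a threshold of 0.05. The fits were tested on simulated data. Columns not used numbered 0. Probe positions are hg18 as in the files, and no annotation of that build was used here. Promoters are RefSeq, GRCh38.p14. A further marker gene is not reported here. A gene of a list was named where a probe was called, at most the 4 largest per list and comparison. The alternatives were other scaling, background and filters, the deposited table, pairing, slide blocks and left-out pairs, and the number of arrays limits the precision.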

Additional observations from a re-analysis of the deposited data

Results flagged for a closer look

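The CLDN4 ratio of AS30-treated over control cells differed between the recovery times, by -2.17 at 22 h against 3 h on the log2 scale (adjusted p = 0.047, limma), with a ratio of 2.47 to 2.83 in the 3 pairs at 3 h and 0.06 to 0.90 in the 3 pairs at 22 h. It was drawn out because the difference between the times was itself tested. It passed the test in 5 of 19 alternatives and kept its sign in all of them, from -3.34 to -0.63. The test for a single outlying sample needs groups of 4 or more and was not run.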

How the results depend on the processing

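Over 19 alternatives, CLDN4 was called in 19 with SM30 (0.97 to 3.71) and in 18 with AS30 at 3 h (0.72 to 3.63), where the call was lost with slide as a fixed block (3.63, adjusted p = 0.14). The lowest values were those with normexp. F11R (A_24_P319364) was called with SM30 in 13 and with AS30 at 3 h in 5.

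Without the replicate block (pairing by letter), 2, 2, 0, 0 and 0 member probes were called for SM30, AS30 at 3 h, AS30 at 22 h, SM30 minus AS30 and AS30 at 22 h minus 3 h, and 2518, 1313, 1408, 14 and 69 of all probes, beside 2146, 720, 1008, 4 and 8 in the paired fit. The call gained was F11R with AS30 at 3 h (adjusted p = 0.0377), and the call lost was CLDN4 at 22 h minus 3 h (adjusted p = 0.115). Same-letter arrays deviated together with r from -0.092 to 0.45, so the letters were not shown to pair the samples. With the letter as a replicate block, the control comparison called 1 member probe and 307 of all, beside 366.

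In the same order, with the control comparison last, slide as a fixed block called 1, 0, 0, 0, 0 and 1 member probes (314, 51, 7, 28, 8 and 137 of all), the control call passing from 1 CLDN1 probe to the other, and slide as a random block 2, 4, 0, 0, 0 and 1 (3046, 3874, 1927, 55, 334 and 528). The random block had a negative estimated correlation within slides (-0.083). No filter called 1, 1, 0, 0, 0 and 1 (1292, 274, 508, 11, 3 and 234). Ratios to the averaged controls, which leave out the spread of the controls, called 5, 7, 3, 4 and 4 (9454, 9885, 8786, 5432 and 5903). At 22 h minus 3 h, the 75th-percentile scaling, normexp and the deposited table each called 0 member probes (0, 7 and 3 of all). The 75th-percentile scaling moved the share of higher calls in the control comparison from 38.8% to 27.7%.

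With 1 pair or array left out, member calls ran from 1 to 2, 1 to 5, 0 to 1, 0 to 0, 0 to 2 and 0 to 2, and all-probe calls from 289 to 2721, 81 to 3060, 2 to 1364, 0 to 7, 0 to 252 and 195 to 1557. The cause of these shifts was not tested. Dim signals limit CLDN4 and CLDN7 in the controls at 22 h.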
